A study of Mus musculus with 8 samples.

Results

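The genes described here encode the axon guidance families, namely ephrins and their Eph receptors, semaphorins with their plexin and neuropilin receptors, netrins with their Unc5 receptors, and Slit ligands with their Robo receptors. They were found by name among the non-control probes of an Agilent whole-genome mouse array, as 122 of 41174 probes, which stand for 67 of 27672 genes and names on the array. The cells were R1 mouse embryonic stem cells, 1 pluripotent line, cultured on gelatin with a serum replacer in the medium. In the LIF group, 4 samples were kept without feeder cells in leukaemia inhibitory factor, which maintains the undifferentiated state of such cells. In the butyrate group, 4 samples were kept for 15 passages in 0.2 mM sodium butyrate, an inhibitor of histone deacetylases, with no LIF. The groups thus differ in the loss of LIF as well as in butyrate, and these cannot be told apart. Whether the LIF group was also kept for 15 passages is unclear from the labels, so time in culture may differ as well and cannot be separated. Each of the 4 arrays paired a butyrate sample (Cy5) with the like-numbered LIF sample (Cy3), in 1 dye orientation throughout, so an effect of the dye cannot be told apart from one of the culture. The labels call the replicates independent without naming separate derivations, and the p-values cover only the scatter of these 4 arrays, part of which may be technical. The number of arrays limits the precision.

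Guidance proteins tell a moving cell or a growing axon where to go, and they are used well beyond the nervous system. Ephrins stay on the cell surface, A-type ephrins by a lipid anchor and B-type ephrins by a membrane span, and contact with an Eph receptor tyrosine kinase on a neighbouring cell can signal into both cells, which sorts cells and keeps tissue boundaries sharp in the embryo. Semaphorins bind plexins, and the secreted class 3 members mostly need a neuropilin as coreceptor. Netrins attract through DCC and repel through Unc5 receptors, while Slits repel through Robo receptors, and all of these families also shape blood vessels and epithelia.

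By the main ratio, which pulls dim genes towards 0, guidance genes changed in both directions and mostly by small amounts, and the larger changes were increases. The netrin receptor Unc5b was 3.57-fold higher in butyrate, the transmembrane ligands Efnb1 and Efnb2 were 3.16-fold and 3.08-fold higher, the ligand Efna5 was 2.33-fold and the receptor Epha1 2.02-fold higher. No guidance gene was 2-fold lower by this ratio, and the netrin Ntn1 came nearest at 1.89-fold. With the scanner software's log ratio 3 were, with log2 ratios of −3.41 for Ntn1, −1.46 for Unc5a and −1.18 for Sema4b. Ntn1 then had the largest change of any guidance gene tested, and Nrp1 (2.43) the largest increase. Of the 67 genes, 55 had a probe bright enough to test, and by limma with Benjamini-Hochberg adjustment over all 17191 genes tested, 28 were higher and 10 lower at an adjusted p of 0.05. That is 69.1% of those tested, against 75.0% of all genes, near the background share. Increases were called for 41.7% and decreases for 33.2% of all genes. Each of the 38 called guidance genes kept its sign from array to array. Of these, Nrp1 and Sema3c passed the brightness filter only by their butyrate signal, and Ntn1 only by its LIF signal. With probes required to be well above background in every sample, 26 were higher and 9 lower of 50 tested. That is 70% called, against 77.5% of all genes under the same filter. Changes of at least 2-fold were found for 5 of the 55 (9.09%), against 6.93% of all genes, with 4.97% for increases and 1.97% for decreases among all genes. The median log2 ratio was 0.14 for the guidance genes and 0.03 for all genes. Ligands gave 19 higher and 5 lower of 31 tested, and receptors 9 higher and 5 lower of 23.

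The balance of increases and decreases depends on how the arrays are scaled. When arrays were only centred on their medians, without a loess curve, the median of all genes moved to 0.41. The 38 guidance genes then called were 36 higher and 2 lower, with 12 changed 2-fold. Of all 17191 genes 61.4% were then called, 92.4% of those higher, and 2851 changed 2-fold. With the log ratio that the scanner software gives, or with the authors' value table, 46 guidance genes were called, 29 higher and 17 lower. Of these, 11 changed 2-fold. Of all genes 79.3% and 79.4% were called under these settings, 47.3% and 45.9% of those higher, and 2988 and 2973 changed 2-fold. The ratios given below take the loess curve as their centre.

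**Figure D1:**
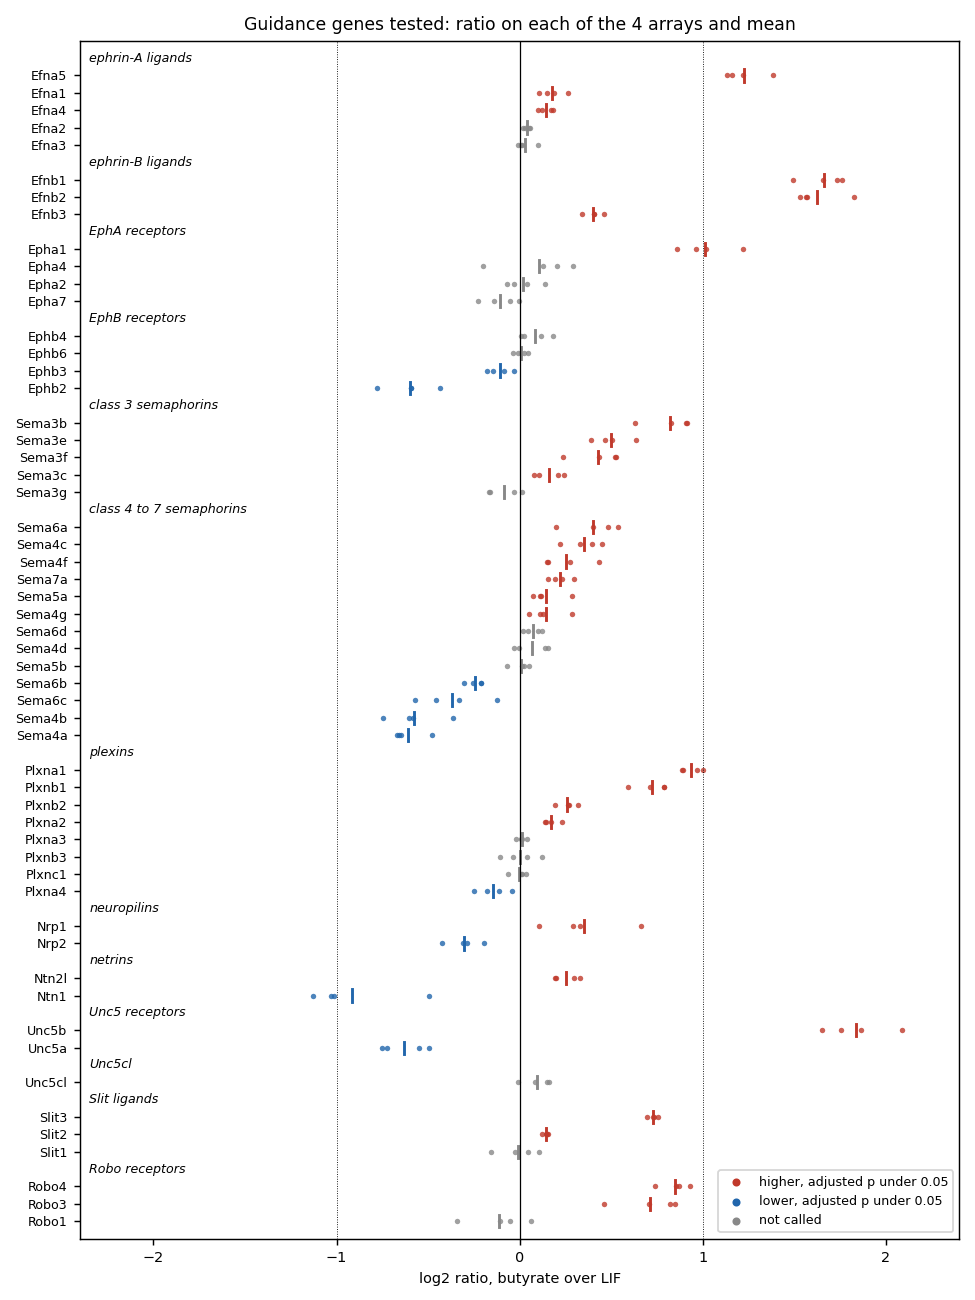
Log2 ratio of butyrate over LIF for the 55 guidance genes tested, by family (1 row per gene). Points are the 4 arrays, the bar is their mean, colour gives the call, and dotted lines mark a 2-fold change. Unc5b, Efnb1, Efnb2, Efna5 and Epha1 have means beyond the right-hand line, and no gene has a mean beyond the left-hand one.

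The stretches upstream of 4 genes with the largest increases and of 2 with large decreases are shown so that the ephrins and Unc5 receptors that lead the changes can be compared by sequence. Each is the 250-base stretch before the annotated start in RefSeq (build GRCm38.p6), 5′ to 3′ on the gene's own strand, and 58 of the 67 genes were matched to a window, Ntn1 not among them. Capitals mark the motifs searched on both strands, GGGCGG, the GC box bound by Sp1-type factors, and TTCNNNGAA, the core of sites bound by STAT factors. The windows lie at chr10:60831582-60831831 (minus strand) for Unc5b, chrX:99135811-99136060 (plus) for Efnb1, chr8:8661243-8661492 (minus) for Efnb2, chr17:62881318-62881567 (minus) for Efna5, chr13:54949161-54949410 (plus) for Unc5a and chr3:88461183-88461432 (minus) for Sema4a, whose first-listed of 4 windows is given.
Unc5b: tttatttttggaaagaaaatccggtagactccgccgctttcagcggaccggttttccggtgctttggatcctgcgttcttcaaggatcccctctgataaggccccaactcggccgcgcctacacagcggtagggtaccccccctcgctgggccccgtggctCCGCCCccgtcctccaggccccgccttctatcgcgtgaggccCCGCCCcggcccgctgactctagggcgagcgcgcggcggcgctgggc
Efnb1: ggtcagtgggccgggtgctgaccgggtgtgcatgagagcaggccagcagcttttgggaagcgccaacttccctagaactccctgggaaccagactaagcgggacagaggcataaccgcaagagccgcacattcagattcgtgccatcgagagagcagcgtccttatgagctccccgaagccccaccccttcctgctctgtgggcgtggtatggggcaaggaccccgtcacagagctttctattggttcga
Efnb2: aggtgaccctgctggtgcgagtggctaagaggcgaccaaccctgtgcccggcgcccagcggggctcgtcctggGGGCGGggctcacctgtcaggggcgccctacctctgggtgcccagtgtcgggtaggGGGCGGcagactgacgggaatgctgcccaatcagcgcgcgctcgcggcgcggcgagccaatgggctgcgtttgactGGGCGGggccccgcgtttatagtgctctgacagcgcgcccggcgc
Efna5: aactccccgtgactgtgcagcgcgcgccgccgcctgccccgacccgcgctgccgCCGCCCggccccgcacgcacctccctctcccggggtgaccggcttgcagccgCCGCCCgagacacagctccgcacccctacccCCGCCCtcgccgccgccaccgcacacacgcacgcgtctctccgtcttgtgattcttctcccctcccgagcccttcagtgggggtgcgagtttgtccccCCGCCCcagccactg
Unc5a: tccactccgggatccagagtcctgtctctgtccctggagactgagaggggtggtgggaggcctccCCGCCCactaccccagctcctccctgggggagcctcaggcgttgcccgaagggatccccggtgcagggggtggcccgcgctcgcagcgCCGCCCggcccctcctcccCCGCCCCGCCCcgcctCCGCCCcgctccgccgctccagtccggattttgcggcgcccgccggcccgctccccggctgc
Sema4a: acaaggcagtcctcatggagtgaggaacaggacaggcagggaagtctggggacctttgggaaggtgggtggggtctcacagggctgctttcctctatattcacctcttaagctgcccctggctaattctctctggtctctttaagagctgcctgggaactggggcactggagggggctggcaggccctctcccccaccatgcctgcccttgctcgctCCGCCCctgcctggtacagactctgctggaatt

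The GC box was found 2 times before Unc5b, 3 times before Efnb2, 4 times before Efna5, 5 times before Unc5a and 1 time before Sema4a, with sites that overlap counted singly, and it was not in the Efnb1 window. The STAT core was in none of the 6. Among all 32851 such windows in the table, 32.7% held a GC box and 7.0% the STAT core. Some genes have several windows, so windows are not separate genes. Of the 26 windows of 23 guidance genes called higher 22 held a GC box (84.6%). Of the 14 windows of 8 genes called lower 11 did (78.6%). Of the 21 windows of 16 genes not called 15 did (71.4%). Of the 13 windows of 11 guidance genes too dim to test, 5 held it (38.5%). The windows of Unc5b, Efnb2 and Efna5 held 27, 27 and 32 CpG pairs and that of Efnb1 13, while those of the lower genes Unc5a and Sema4a held 25 and 2. The median was 6.0 over all windows, 15.0 over those of all guidance genes, 17.0 over those called higher and 15.5 over those called lower. A match describes letters only, and no binding was measured.

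Some facts of the arrays touch all of these values. The share of non-control spots well above background ran from 57.9% to 61.2% for LIF and from 62.7% to 63.9% for butyrate. Median signals were 62.8 to 66.0 in Cy3 and 110.0 to 111.4 in Cy5. Array 2 gave the ratio nearest to 0 for 26 of the 38 called guidance genes (68.4%), and for 48.4% of all called genes. The 9 stem cell markers tested were well above background in every sample, 7 of them lower and 1 higher in butyrate, with a mean log2 level of 12.68 to 12.73 in LIF and 12.06 to 12.18 in butyrate. Trophoblast markers were higher for 10 of 10, with a mean log2 level of 9.42 to 9.74 in the LIF samples and 11.37 to 11.42 in butyrate, Elf5 being at background in LIF. Fibroblast markers were higher for 8 of 9 and lower for 1 (7.58 to 7.83 against 8.99 to 9.03), with Lum above background in 1 butyrate sample alone, and Dcn and Col6a1 at background in LIF. Endothelial markers were 3 higher and 3 lower of 8 (7.48 to 7.52 against 7.61 to 7.65), with Tie1 and Emcn at background in both groups and Cdh5 in LIF. Neuronal markers were 3 higher and 5 lower of 9 (9.0 to 9.03 against 8.90 to 8.99), with Dcx at background in both groups and Snap25 in butyrate. The part of these other cell types in the guidance gene results was not tested. In such bulk RNA, fewer cells of a type and less RNA per cell cannot be told apart.

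Of 8 ephrins tested, 6 were higher and 2 were not called. The share called was 75%, no more than the 75.0% of all genes, of which 41.7% were called higher. All 3 B-type ligands were higher, as were 3 of the 5 A-type ligands, and none was called lower. Efnb1, an X-linked ligand that sorts cells at tissue borders, had log2 levels of 8.20, 8.36, 8.14 and 8.19 in the LIF samples and of 9.93, 9.85, 9.80 and 9.94 in butyrate. The groups did not overlap, and each butyrate sample lay above its LIF partner by 1.49 to 1.76. The mean log2 ratio was 1.66 ± 0.12 (SD, n = 4 arrays, limma adjusted p = 7.82e-08). The 513 genes of the X chromosome had a median of 0.12, and the part of the chromosome in the result was not tested. Efnb2, the ligand that marks arteries and binds Ephb4, had levels of 8.71, 8.96, 8.89 and 9.02 in LIF and of 10.54, 10.49, 10.46 and 10.59 in butyrate. The butyrate samples were again all higher, with ratios of 1.83, 1.53, 1.57 and 1.56 on arrays 1 to 4. The mean was 1.62 ± 0.14 (limma adjusted p = 1.21e-07). A second, dimmer Efnb2 probe also rose, by 0.37 ± 0.11, which is 1.29-fold, and the mean of both probes was 0.99. Efnb2 lies on chromosome 8, whose 764 genes had a median of 0.29, and its part in the result was not tested. Efnb3, a ligand of the neural midline, rose by less (0.40 ± 0.05, 1.32-fold, limma adjusted p = 1.98e-05). It lies on chromosome 11, where the median of 1249 genes was 0.21.

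Of the A-type ligands, Efna5, which helps to order retinal axons, had log2 levels of 8.86 to 8.95 in LIF and of 10.04 to 10.24 in butyrate. Its ratios were 1.38, 1.22, 1.16 and 1.13 on arrays 1 to 4, so the groups lay far apart. The mean was 1.22 ± 0.11 (limma adjusted p = 2.51e-07). A second Efna5 probe, which carries another transcript accession and was not above background in any LIF sample, gave 0.14 ± 0.07, and the mean of both was 0.68. Efna1 (0.18 ± 0.07) and Efna4 (0.14 ± 0.04) rose by little, 1.13-fold and 1.10-fold, and Efna4 did not pass with the scanner software's log ratio or the authors' table. Efna2 (0.04 ± 0.02) and Efna3 (0.03 ± 0.05) were not called here. With the scanner software's log ratio both were lower, at −0.11 and −0.17, and with median centring both were called higher.

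**Figure D2:**
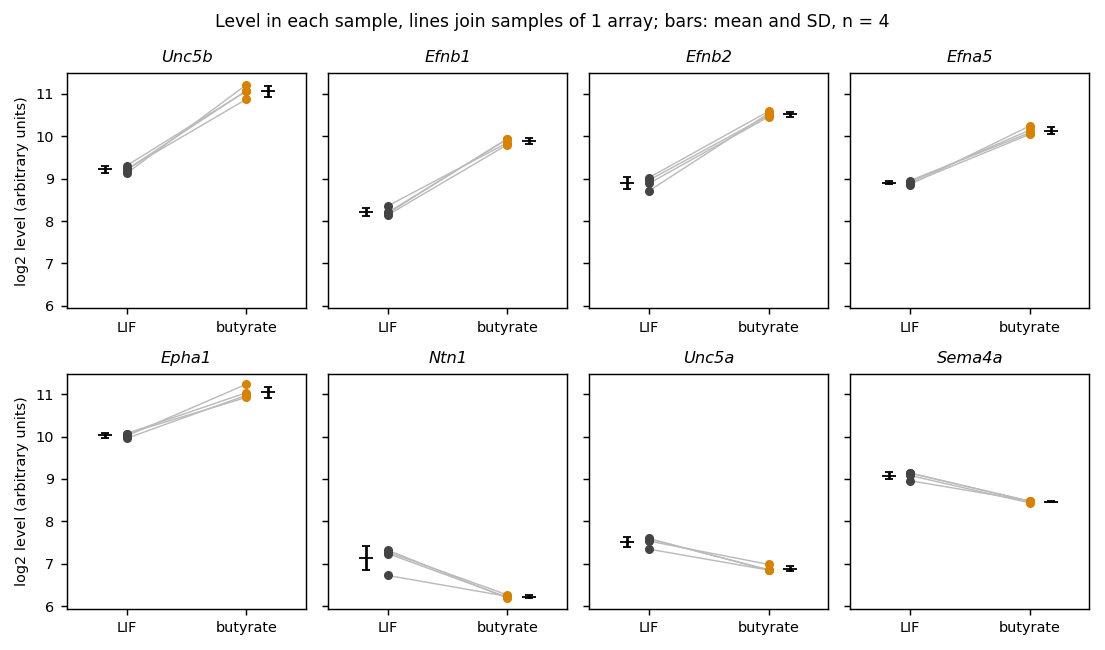
Log2 level (arbitrary units, after loess and quantile normalization of the array means) of the 5 guidance genes changed 2-fold and the 3 with the largest decreases, in each of the 4 LIF and 4 butyrate samples. Lines join samples of an array, and bars give the mean and SD. The groups of each gene are separate, and for Ntn1 the LIF sample of array 2, at 6.72, lies below the other LIF samples.

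The Eph receptors were mostly not called. Of 8 Eph receptors tested, Epha1 was higher, Ephb2 and Ephb3 were lower and 5 were not called. The share called was 37.5%, against 75.0% of all genes. Epha1, a receptor found mostly on epithelia, had levels of 10.07, 9.96, 10.01 and 10.07 in LIF and of 10.92, 10.97, 11.23 and 11.03 in butyrate. The groups did not overlap, and the mean ratio was 1.01 ± 0.15 (limma adjusted p = 1.57e-06). It sits just above the 2-fold line, and it was 0.94 without array 3, 0.99 by the scanner software's log ratio and 0.98 by the authors' value table. Ephb2, a receptor of B-type ephrins on neurons and intestinal progenitors, had ratios of −0.59, −0.43, −0.59 and −0.78 on arrays 1 to 4, and its groups did not overlap. Its mean was −0.60 ± 0.14, or 1.52-fold lower (limma adjusted p = 2.24e-05), and its second probe fell by 0.39. With median centring it was no longer called, at −0.09. Ephb3 fell by only 0.11 ± 0.07, a call lost without array 1, 3 or 4, and with median centring it was at 0.49.

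The bright Epha2, a receptor of epithelia and tumours, was at 0.02 ± 0.09 and was not called. Ephb4, the venous partner of ephrin-B2, was at 0.08 ± 0.08, Ephb6, which lacks kinase activity, at 0.01 ± 0.04, Epha4 at 0.10 ± 0.21 and Epha7 at −0.11 ± 0.10. None of these 4 was called, although a second Epha4 probe rose by 0.19 ± 0.04. The dim Epha7 was called lower in 8 of 17 alternatives, at −0.61 with the scanner software's log ratio, and Epha2 (0.54), Epha4 (0.68) and Ephb4 (0.61) were called higher with median centring. Another 6 Eph receptors, Epha3, Epha5, Epha6, Epha8, Epha10 and Ephb1, were not bright enough to test. Only Epha3 among them was above background anywhere, with 1 of its 3 probes on 1 array in each group.

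The Unc5 receptors split. Unc5b, a netrin receptor of vessels and other tissues, was the guidance gene with the largest main ratio, and ranked 159 from the top among the 17191 genes. Its levels were 9.13, 9.21, 9.22 and 9.31 in LIF and 11.21, 11.07, 10.87 and 11.06 in butyrate. All butyrate samples stood clear of all LIF samples, with ratios of 2.08, 1.86, 1.65 and 1.75 on arrays 1 to 4 (mean 1.84 ± 0.19, limma adjusted p = 1.78e-07). Unc5a, a netrin receptor best known from neurons, went the other way, with levels of 7.34 to 7.60 in LIF and 6.85 to 6.98 in butyrate. The groups did not overlap, and the mean was −0.63 ± 0.13, or 1.55-fold lower (limma adjusted p = 1.18e-05). With the scanner software's log ratio, which adds no offset to dim signals, the Unc5a ratio was −1.46. The probes of Unc5c and Unc5d were too dim to test, with 1 Unc5c probe above background on 1 array in butyrate. Unc5cl, which shares the name but is not a netrin receptor, was not called (0.09 ± 0.08).

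Their ligand netrin-1 was lower. Ntn1, the secreted netrin that guides commissural axons, had levels of 7.32, 6.72, 7.24 and 7.28 in LIF and of 6.19, 6.23, 6.21 and 6.27 in butyrate. The butyrate samples were close together and dim, the probe being well above background in 2 of 4, while the LIF sample of array 2 was lower than the other LIF samples. The ratios were −1.13, −0.49, −1.03 and −1.01 on arrays 1 to 4. The mean was −0.92 ± 0.29 (limma adjusted p = 4.99e-05), and −1.06 without array 2. The ratio was −1.2 with no background correction and −1.4 with an offset of 16. Ntn1 was at −3.41 by the log ratio of the scanner software and at −3.53 by the authors' value table. The second Ntn1 probe was at background in every sample. Ntn1 lies on chromosome 11, whose median was 0.21, and the part of the chromosome in its ratio was not tested. Ntn2l, an older name for Ntn3, rose slightly (0.26 ± 0.07, 1.19-fold), and Ntn4 was at background.

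Among the Slit and Robo genes, every called change was an increase. Calls were made for 2 of 3 Slit ligands and 2 of 3 Robo receptors tested (66.7% each, against 75.0% of all genes). Slit3, a secreted repellent, had log2 levels of 8.41 to 8.52 in LIF and of 9.17 to 9.25 in butyrate. The ratios of 0.73, 0.69, 0.73 and 0.75 on arrays 1 to 4 were close together, with a mean of 0.73 ± 0.02 (1.66-fold, limma adjusted p = 5.23e-07). The second Slit3 probe gave 1.02 ± 0.26. Slit3 shares chromosome 11 with Efnb3 and Ntn1. Slit2 rose by 0.14 ± 0.02, or 1.10-fold, in its brightest probe. Its second tested probe gave 0.03 ± 0.02 and was not called, and 4 of its 6 probes were at background in all samples. Slit1 was not called (−0.01 ± 0.11), and lay at 0.37 and was called with median centring.

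Robo4, the Robo receptor of blood vessels, had levels of 9.31 to 9.33 in LIF and of 10.07 to 10.24 in butyrate. These LIF samples were nearly equal, and the ratio of 0.85 ± 0.08 was 1.80-fold (limma adjusted p = 6.82e-07). Robo3, which times the midline crossing of commissural axons, rose 1.63-fold (0.71 ± 0.18), with 0.46 on array 2 and 0.71 to 0.85 on the others, and its second probe rose by 0.48. With the scanner software's log ratio Robo3 was at 1.15. Robo1 was not called (−0.11 ± 0.17), though with median centring it was at 0.43 and was called, and the 6 probes of Robo2 were at background in all 8 samples.

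Of 18 semaphorins tested, 10 were higher, 4 lower and 4 not called, and none changed 2-fold. The share called was 77.8%, near the 75.0% of all genes. With the scanner software's log ratio Sema3c, Sema6a and Sema4b passed 2-fold, and with median centring Sema3b (1.34) and Sema3e (1.07) did. Of the secreted class 3 members, 4 of 5 tested were higher, beside 41.7% of all genes. Among these, Sema3c passed the brightness filter only by its butyrate signal. Sema3b, a secreted semaphorin studied as a tumour suppressor, had ratios of 0.82, 0.63, 0.91 and 0.91 on arrays 1 to 4. Its mean of 0.82 ± 0.13 was 1.76-fold (limma adjusted p = 3.21e-06), and no LIF sample (7.96 to 8.19) reached a butyrate sample (8.82 to 8.99). Sema3e, which can signal through plexin D1 without a neuropilin, rose 1.41-fold (0.50 ± 0.10), and its second tested probe by 0.15. Sema3f, a ligand of neuropilin-2, rose 1.34-fold (0.43 ± 0.13), with 0.36 in its second probe. Sema3c, which patterns the outflow tract of the heart, was not well above background in any LIF sample, and its ratio was 0.16 ± 0.08. Its own LIF signal lay no lower than the floor of that channel, so its bound was only the measured ratio, 1.115-fold. With the scanner software's log ratio Sema3c was at 1.29. Sema3g was not called (−0.09 ± 0.09), though it was at −0.27 and called with the scanner software's log ratio, and Sema3a, the best known repellent of the class, and Sema3d were at background in every sample.

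The membrane-bound semaphorins split 6 higher to 4 lower of 13 (76.9% called, against 75.0% of all genes). Sema4a, a semaphorin of retina and immune cells, had levels of 9.14, 8.96, 9.13 and 9.08 in LIF and of 8.47, 8.48, 8.48 and 8.44 in butyrate. The butyrate samples were nearly equal and all lower, with a mean ratio of −0.61 ± 0.09 (1.53-fold, limma adjusted p = 5.1e-06). Sema4b fell 1.49-fold (−0.58 ± 0.16), and by the scanner software's log ratio it was at −1.18. Neither Sema4a nor Sema4b was called with median centring (−0.07 and −0.24). Sema6c (−0.37 ± 0.19) and Sema6b (−0.24 ± 0.04), which bind A-type plexins as a class, were the other decreases, and with median centring they lay at 0.13 and 0.09. The second tested Sema6c probe gave −0.10 ± 0.06 and was not called.

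The increases were small. Sema6a rose by 0.40 ± 0.15, though its second tested probe gave 0.08 ± 0.11, and the scanner software's log ratio gave 1.27. Sema4c rose by 0.35 ± 0.10 in its brightest probe and by 0.83 ± 0.22 in the other. Sema4f (0.25 ± 0.13), Sema7a, the member with a lipid anchor (0.22 ± 0.06), Sema5a (0.15 ± 0.10) and Sema4g (0.14 ± 0.10) followed. The call of Sema4g was lost in 5 of the 17 alternatives, among them leaving out array 1, 3 or 4, and that of Sema5a in 2, median centring and leaving out array 1. Sema4d, a ligand of plexin B1 (0.07 ± 0.09), and Sema6d, dim in LIF (0.07 ± 0.05), were not called, but Sema4d was at 0.52 with median centring and Sema6d at 0.71 with the scanner software's log ratio. Sema5b was at 0.01 ± 0.05 in its brightest probe, but 2 other probes fell by 0.42 ± 0.12 and 0.39 ± 0.06, and their mean with the first was −0.27.

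Of 8 plexins tested, 4 were higher, 1 was lower and 3 were not called. The share called was 62.5%, against 75.0% of all genes. Plxna1, which pairs with neuropilins as receptor of class 3 semaphorins, had levels of 9.48 to 9.63 in LIF and of 10.48 to 10.55 in butyrate. The samples of each group were close together, and the mean ratio was 0.94 ± 0.06 (1.91-fold, limma adjusted p = 2.57e-07). Its second probe gave 0.23 ± 0.08, and the mean of both was 0.59. Plxnb1, the receptor of Sema4d, rose 1.65-fold (0.72 ± 0.09), with 0.33 in its second probe. Plxnb2 (0.26 ± 0.05) and Plxna2 (0.17 ± 0.04) rose by less, and the other tested probes of both, from −0.04 to 0.01, were not called. With the mean over probes Plxna2 lost its call (0.06). Plxna4 was slightly lower (−0.15 ± 0.09), a call lost without array 1 or 3 and with median centring. Plxna3 (0.01 ± 0.03), Plxnb3 (0.00 ± 0.10) and Plxnc1, the receptor of Sema7a, were not called, and the scanner software's log ratio put Plxna3 at −0.15 and Plxnc1, dim in LIF, at 0.5.

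The neuropilins moved apart. Nrp1, coreceptor of Sema3a and of VEGF, was higher on each array, at 0.66, 0.11, 0.33 and 0.29 on arrays 1 to 4. Its mean was 0.35 ± 0.23 (1.27-fold, limma adjusted p = 0.00437), and the spread between arrays was large beside it. Across arrays its LIF levels (6.26 to 6.79) overlapped its butyrate levels (6.73 to 7.08). The probe was well above background in 1 of 4 LIF samples, and the scanner software's log ratio gave 2.43. A second probe, at background in every LIF sample, gave 0.44 ± 0.16, or 1.354-fold, and its bound was only this measured ratio. Nrp1 lies on chromosome 8, where the median of all genes was 0.29. Nrp2, coreceptor of Sema3f, was lower, at −0.19, −0.31, −0.42 and −0.29 (mean −0.30 ± 0.09, 1.23-fold, limma adjusted p = 0.000337). With median centring Nrp2 lay at 0.29 and was not called.

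Of 20 guidance genes with more than 1 tested probe, 11 had all probes called in the same direction, 7 had some called and some not, 2 had none called, and none had probes called in opposite directions. The probes lay more than 0.5 apart on the log2 scale for Efnb2, Efna5 and Plxna1, in each case with the brighter probe giving the larger increase. For Slit3 and Sema4c the dimmer probe gave the larger one.

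**Figure D3:**
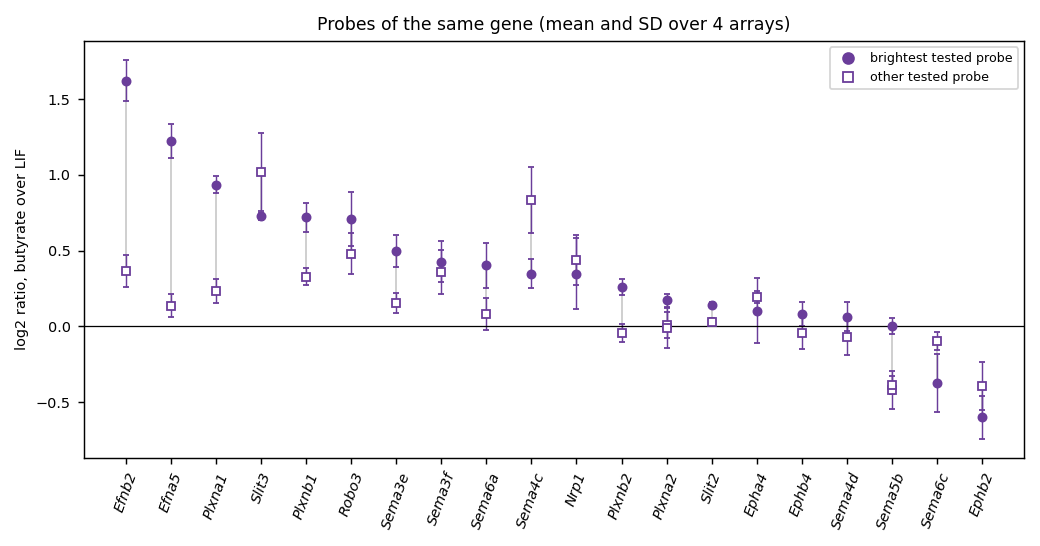
Log2 ratio of butyrate over LIF (mean and SD, 4 arrays) of each tested probe for the 20 guidance genes with more than 1. Filled circles are the brightest probe, open squares the others. Efnb2 runs from 0.37 to 1.62 and Efna5 from 0.14 to 1.22, while Slit3 and Sema4c are higher in the dimmer probe.

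The 12 genes that could not be tested had 26 probes, of which 1 was above background in any LIF sample and 2 in any butyrate sample. Of these genes, 10 had no probe above background in any of the 8 samples. Their probe ratios, from −0.08 to 0.15, say nothing about a change at this signal. Among the 10 are the neural receptors Epha5, Robo2 and Unc5d and the ligand Sema3a.

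Partners of these pathways were also examined, as a list of 44 coreceptors, cytoplasmic adaptors and other guidance proteins. Of 41 tested, 24 were higher and 8 lower, which is 78.0% against 75.0% of all genes. A 2-fold change was found for 3 (7.32%, against 6.93% of all genes), 2 higher and 1 lower, and the list's median log2 ratio was 0.15 against 0.03 for all genes. Farp1, an exchange factor that acts with plexins, had the largest increase (1.96 ± 0.02, n = 4 arrays), with nearly the same value on each array. Flrt3, an adhesion protein that binds Unc5 and Robo receptors, followed at 1.26 ± 0.15. The kinase Fes (0.98 ± 0.09) and the exchange factor Trio (0.97 ± 0.09) came next. Crmp1, a cytoplasmic mediator of semaphorin signals, fell most (−1.06 ± 0.06). Tiam1, a Rac exchange factor (−0.70 ± 0.12), Srgap2, which binds Robo receptors (−0.52 ± 0.15), and Mical1, an oxidase downstream of plexins (−0.46 ± 0.05), also fell.

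Chromosomes 8, 11 and 19 had the highest medians, 0.29, 0.21 and 0.18, and 7 tested guidance genes lie on them, of which 5 were higher (Efnb2, Nrp1, Efnb3, Slit3 and Sema4g) and 1, Ntn1, was lower. Their median was 0.35, against 0.22 for all genes of these chromosomes. Of the 48 elsewhere, 23 were higher and 9 lower, with a median of 0.10 against −0.01 for the genes there. Among all genes tested 41.7% were higher and 33.2% lower. These shares were not counted by chromosome, so the counts on chromosomes 8, 11 and 19 have no background share of their own.

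The 5 largest increases kept their call under each of the 17 alternatives. Unc5b ranged from 1.76 to 2.43, Efnb1 from 1.63 to 2.23, Efnb2 from 0.99 to 2.21, Efna5 from 0.68 to 1.81 and Epha1 from 0.94 to 1.61 over them, the lowest values of Efnb2 and Efna5 being those of the mean over probes. Of the 28 genes higher, 23 kept their direction and call under every alternative that gave a value. Of the 10 lower, 2 did, Ntn1 and Unc5a. Ephb2, Sema4a, Sema4b, Nrp2, Sema6b and Sema6c failed only with median centring. That setting moved the median of all genes to 0.41, and 92.4% of all genes it called were higher. It therefore takes calls from decreases more than from increases, and these counts do not compare how robust the 2 directions are.

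**Figure D4:**
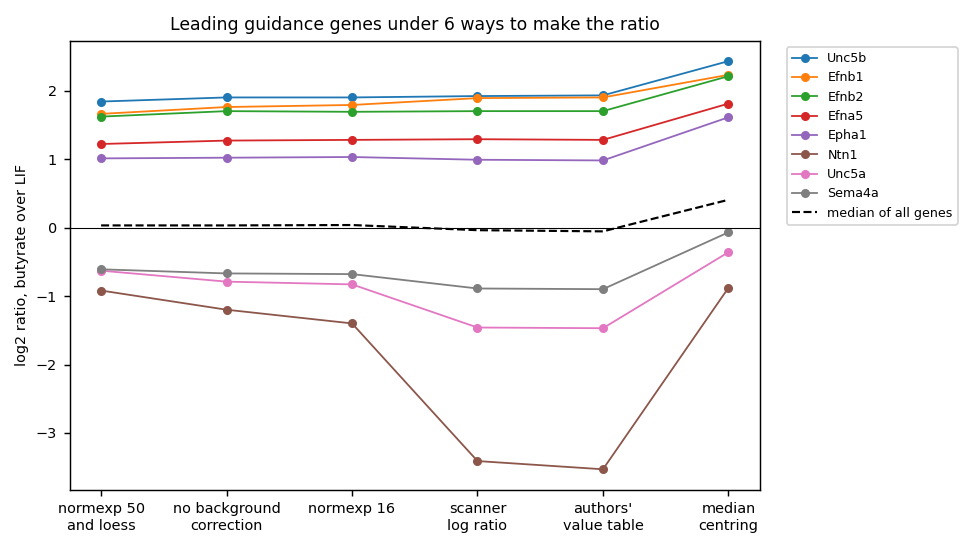
Log2 ratio of the 8 genes with the largest increases and decreases under 6 ways of making the ratio (horizontal axis), with the median of all genes dashed. The 5 increases stay between 0.98 and 2.43. Ntn1 runs from −0.88 to −3.53, and median centring lifts the median of all genes to 0.41 and Sema4a to −0.07.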

How the data were processed

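Per the submitters' processing notes, Agilent Feature Extraction 9.1 was used. The deposited scanner files hold the mean and background intensity of every spot in each colour, and, per the file headers, a processed signal and a log10 ratio of Cy5 over Cy3 that are background-subtracted and dye-normalized. Both samples of an array share a scan, and all arrays lay on 1 slide, so no batch could be tested. The authors' deposited value table holds 1 column of log2 values per sample (correlation with that sample's log2 processed signal at least 0.99956). The median of each column was 6.487, and how the columns were brought to 1 median is unknown here.

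Mean signals and median backgrounds were corrected with limma 3.58.1 in R 4.3.3 (normexp, offset 50) and normalized by loess, control spots at weight 0. Outlier spots (14) were left out, and the spots of a probe averaged. The offset pulls ratios of dim genes towards 0. Testing required a probe to be well above background in 1 colour on 3 or more arrays, and a gene was read from its brightest tested probe. Levels by sample are channel values after loess and Aquantile. The log2 ratios were tested against 0 with lmFit and eBayes. A gene at background in 1 group has a bound, set from the lowest signal well above background in that channel. Where the probe's own signal was higher than this floor, its own signal was used, and the bound is then the measured ratio.

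Guidance genes were grouped by the name in the file, and other probes through the reference of assembly GRCm38.p6 (22951 by accession, 6659 by symbol, 3109 by synonym, 8455 by file name). The ratio takes the array out as a block. After group means were taken off, samples with the same number correlated at 0.2977, 0.1584, 0.3064 and 0.2258, and others at −0.214 to 0.1009. Array and culture cannot be told apart in this. Members and lists were chosen with earlier results of these data known. Any guidance gene could be named, with values on each array for those changed 2-fold, along with the 4 partners that rose and the 4 that fell most, and the windows upstream of the 4 largest increases and 2 largest decreases in the table. Values by array or sample of the other genes (Ntn1, Unc5a, Ephb2, Sema4a, Sema3b, Slit3, Robo3, Robo4, Plxna1, Nrp1 and Nrp2) were added after their values were seen. Alternatives were other background corrections, scalings, filters, ways to combine probes, variance models and blocks, each replicate left out, and the authors' table. The steps were tested on simulated arrays of butyrate against LIF with 17191 genes. There 43 of 50 genes changed 2-fold, 37 of 50 changed 1.5-fold and 22 of 50 changed 1.2-fold were recovered, and 11 of 16991 unchanged genes were called. The median log2 estimate was 0.834 for 2-fold and 1.706 for 4-fold changes. Few genes were changed, evenly in both directions and only among those bright in LIF, whereas 75.0% of genes were called in the data. The simulation thus does not test the centring or the false calls in such a setting. Figures used matplotlib 3.10.9 in Python 3.11.15.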

Additional observations from a re-analysis of the deposited data

Results flagged for a closer look

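In 2 of the 55 guidance genes tested, 1 array stood apart from the other 3 by Dixon's test on the 4 ratios. Chance gives this in about 1 in 20 groups of 4. Efnb2 had a log2 ratio of 1.83 on array 1, against 1.53 to 1.57 on the others. Sema4a had −0.48 on array 2, against −0.67 to −0.65 on the others.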

How the results depend on the processing

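Over the 55 guidance genes and 17 alternatives, 856 of 930 ratios stayed called in the same direction or stayed uncalled, 22 lost the call, 35 gained it and 17 took the other sign with a call before or after. Among those that stayed uncalled, 15 also changed sign at 2 decimals, in 7 genes, as Ephb6 did by the scanner software's log ratio (−0.21). With the scanner's log ratio, as with the values the authors deposited, the count changed 2-fold was 11 under each, the count lower 17 under each and the count 2-fold lower 3 under each. With median centring 12 changed 2-fold and 2 were lower. Among all 17191 genes, the scanner's log ratio, the authors' values and median centring gave 2988, 2973 and 2851 changed 2-fold, against 1192 in the main fit. With the mean over tested probes 3 guidance genes changed 2-fold. With no background correction, and with an offset of 16, 1 was 2-fold lower. With each replicate left out, 4 to 6 changed 2-fold, 0 to 1 were 2-fold lower, 34 to 42 were called, 26 to 29 higher and 8 to 13 lower. With no replicate block 37 guidance genes and 12509 genes were called, Ephb3, Plxna4 and Sema4g being lost (each also without some single replicates), and Epha7 and Unc5cl gained. By that log ratio Efna2 (−0.11), Efna3 (−0.17), Plxna3 (−0.15), Plxnc1 (0.5) and Sema5b (−0.11) took the other sign and were called, and by the authors' value table too (−0.14, −0.17, −0.17, 0.37 and −0.12). With median centring Ephb3 (0.49), Nrp2 (0.29), Robo1 (0.43), Sema6b (0.09), Sema6c (0.13) and Slit1 (0.37) took the other sign. Sema5b was at −0.27 with the mean over its probes. The causes were not tested. Ntn1 and 4 other genes had no value under the strict filter on dim probes. Left out after seeing the data, the genes of chromosomes 8, 11 and 19 lowered the calls to 32 and the 2-fold changes to 4, and Unc5cl changed no count. Dim probes near background limit what can be said of their genes.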

Other observations

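A pair of probes that the reference assigns to a guidance gene carries other names on the array and is outside the groups above. One, assigned to Sema3e, rose by 0.41 ± 0.05 on the log2 scale (n = 4 arrays, limma adjusted p = 1.85e-05), near the 0.50 of the brightest Sema3e probe. The other, assigned to Nrp2, was not bright enough to test (−0.05 ± 0.06), while the bright Nrp2 probe was called lower.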
